A study of Mus musculus with 2 samples.

Results

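The mouse carries a pair of clusters of the microRNAs miR-23, miR-27 and miR-24, and their 6 hairpins were followed here through small-RNA libraries of cells with and without Dicer. The hairpins Mir23a, Mir27a and Mir24-2 form the a cluster, and Mir23b, Mir27b and Mir24-1 form the b cluster. They were chosen by name, 6 of 2199 annotated mouse miRNA hairpins, and every read of 18 nt or more that lay in one of them in sense and without mismatch was counted. Small RNAs were sequenced from immortalized clones of mouse mesenchymal stem cells (MSCs) of the strain C57BL/6, fibroblasts found in the marrow of adults, grown in 10% fetal bovine serum to near-confluence. One library came from a Dicer -/- line, called null here, and one from a Dicer f/f line, in which the Dicer gene is flanked by recombination sites and left in place. Each line is a clone, so that genotype, clone and library cannot be told apart, and with 1 library per genotype no test was possible.

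The null library held 6291599 reads and the f/f library 9943989 reads, of which 136378 and 5925711 lay in a miRNA hairpin. Values are in CPM, counts per 1000000 reads of the library. Their intervals are exact 95% intervals that cover counting error only, since reads without molecular identifiers are not independent molecules. A count of 0 is read as at most 3 reads, which is 0.477 CPM in the null library and 0.302 CPM in the f/f library. These are bulk libraries, in which fewer molecules per cell and fewer cells that make them cannot be told apart. Of the miRNA hairpins listed as mesenchymal (miR-143, miR-145, miR-199 and miR-214), 6 of 6 had reads in both libraries, at 1935 CPM summed in null cells and 90148 CPM in f/f cells. The 6 listed haematopoietic hairpins summed to 92.7 CPM in null cells, with reads from 5 of them, and to 19.4 CPM in f/f cells, with reads from 4 of them. Sums over the other listed hairpins were 24.8 CPM in null cells and 3.22 CPM in f/f cells for the 6 epithelial ones, 2.07 and 33.7 CPM for the 2 endothelial ones, and 1.27 and 225 CPM for the 5 muscle ones. The part of these lists in the results was not tested. The Dicer transcript was not measured by these libraries, so the genotypes rest on the labels.

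A miRNA is cut from its transcript in 2 steps. Drosha cuts at the base of the hairpin and sets the 5′ end of the 5p arm and the 3′ end of the 3p arm, and Dicer then cuts off the loop and sets the other end of each arm. Bases 2 to 8 of the mature arm, the seed, pair with target mRNAs. In mouse mesenchymal cells, the miR-23a, miR-27a and miR-24-2 cluster is known to restrain osteoblast differentiation, miR-27 is known to restrain adipocyte differentiation through PPARγ, and miR-24 is known in human cells for holding down cell-cycle regulators.

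The mature arms below are RefSeq's (GRCm38.p6), with the seed in capitals, and show which members share a seed. The 3p arms of the a and b clusters share a seed within each family.
miR-23a-3p: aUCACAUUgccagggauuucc
miR-27a-3p: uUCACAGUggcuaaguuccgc
miR-27b-3p: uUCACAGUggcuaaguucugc
miR-24-3p: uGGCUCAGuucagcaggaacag
The 5p arms are the opposite strands of the same hairpins. Those of Mir24-2 and Mir24-1 share a seed, and the others each have their own.
miR-23a-5p: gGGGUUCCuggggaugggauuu
miR-23b-5p: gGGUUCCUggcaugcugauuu
miR-27a-5p: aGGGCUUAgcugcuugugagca
miR-27b-5p: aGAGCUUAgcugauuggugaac
miR-24-2-5p: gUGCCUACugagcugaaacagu
miR-24-1-5p: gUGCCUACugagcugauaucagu
Counted from 1 at the 5′ end of the 3p arm, the only difference between Mir23a and Mir23b over 21 nt is U19A, with the Mir23a base first, and that between Mir27a and Mir27b is C19U, with the Mir27a base first. The miR-24-3p sequence is the same in both clusters over 22 nt, so nearly all miR-24 reads belong to either cluster. Short miR-23 and miR-27 reads that end before base 19 are likewise shared.

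In GRCm38 the a cluster spans 404 bp of chromosome 8, + strand: Mir23a at chr8:84208518-84208592, Mir27a at chr8:84208672-84208758 and Mir24-2 at chr8:84208815-84208921. No protein-coding gene overlaps it in the annotation, and the last 2 bp of Mir24-2 overlap an exon of the lincRNA Gm26532. The b cluster spans 792 bp of chromosome 13, + strand, inside 2010111I01Rik: Mir23b at chr13:63300484-63300557 is intronic, while Mir27b at chr13:63300712-63300784 and Mir24-1 at chr13:63301208-63301275 overlap exons of some of its transcripts. Fancc covers the same stretch on the opposite strand, with the hairpins in its introns.

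The reads of the 6 hairpins were scarcer in null cells, by more in the b cluster than in the a cluster. The a cluster gave 1071 reads in null cells and 152996 reads in f/f cells, 90.4-fold lower in null cells in CPM (85.1 to 96.1). The b cluster gave 110 reads in null cells and 56867 reads in f/f cells, 327-fold lower (271 to 398). Reads shared by the clusters, nearly all of them miR-24-3p, numbered 154 in null cells and 81034 in f/f cells, 333-fold lower (284 to 393). All 6 hairpins together made up 0.979% of miRNA reads in null cells and 4.91% in f/f cells, and their sum was 138-fold lower in null cells (131 to 146).

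The distance between the clusters lay in a single arm, miR-27a-5p. Without it, a split chosen after its value was seen, the a cluster was 340-fold lower in null cells (303 to 384), an interval that holds the b cluster's value. The losses of both clusters were larger among short reads. Counting only lengths of 18 to 23 nt, where Dicer products fall, the a cluster was 187-fold lower and the b cluster 471-fold lower. Reads of 24 nt or longer from the a cluster numbered 554 in null cells and 277 in f/f cells. They were 3.16-fold higher in null cells in CPM (2.73 to 3.67) but lower per snoRNA and snRNA read. Of the 554, 474 were miR-27a-5p. Without that arm, long reads of the a cluster numbered 80 in null cells and 276 in f/f cells. They were then 2.18-fold lower in null cells in CPM (1.70 to 2.84) but higher per read of 18 to 23 nt and per miRNA read. Long reads of the b cluster numbered 34 in null cells and 284 in f/f cells, 5.29-fold lower in null cells in CPM (3.70 to 7.78) but higher per miRNA read.

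The 3p arms, which carry the family seeds, were the abundant strands in f/f cells and had the largest fold losses among the arms told apart when all lengths were counted. miR-23a-3p had 67 reads in null cells and 101635 in f/f cells, 960-fold lower in null cells (756 to 1239). miR-23b-3p had 9 and 15265 reads, 1073-fold lower (565 to 2347), so the intervals of the paralogues overlapped. miR-24-3p had 143 reads in null cells and 80420 in f/f cells, 356-fold lower (302 to 422). miR-27a-3p had 120 and 47177 reads, 249-fold lower (208 to 300), and miR-27b-3p had 78 and 40238 reads, 326-fold lower (262 to 413). The losses of miR-23a-3p and miR-23b-3p were larger than those of their cluster neighbours miR-27 and miR-24, with intervals that did not overlap those of the other 3p arms. Reads that fit both paralogues were 35.4-fold lower in null cells for miR-23a/23b-3p (3 and 168 reads) and 35.3-fold lower for miR-27a/27b-3p (8 and 446 reads), with few reads in null cells. In order of abundance in each library among all miRNA species, miR-23a-3p ranked 143 in null cells and 12 in f/f cells, miR-24-3p ranked 100 and 14, and miR-27a-3p ranked 109 and 20.

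The 5p arms did not move together. miR-23a-5p had 16 reads in null cells and 1706 in f/f cells, 67.5-fold lower in null cells (41.4 to 118). miR-27b-5p had 5 and 989 reads, 125-fold lower (53.5 to 386). miR-23b-5p had 14 and 375 reads, 16.9-fold lower in CPM (9.98 to 31.3), but higher in null cells per miRNA read. miR-27a-5p had 791 reads in null cells and 2442 in f/f cells, 126 and 246 CPM, and was 1.95-fold lower in null cells in CPM (1.80 to 2.12), but higher in null cells per read of 18 to 23 nt and per miRNA read. It was the member with the most reads in null cells, where it ranked 36 among miRNA species, against 106 in f/f cells. The 5p arm of Mir24-2 gave 56 reads in null cells and 36 in f/f cells, 2.46-fold higher in null cells in CPM (1.59 to 3.85), but lower per snoRNA and snRNA read. The 5p arm of Mir24-1 had no read in either library. Counting only reads of 18 to 23 nt, the losses of the miR-23 and miR-27 5p arms were larger, 135-fold for miR-23a-5p, 117-fold for miR-23b-5p, 515-fold for miR-27b-5p and 4.87-fold for miR-27a-5p. At those lengths miR-27b-5p, with 1 read in null cells and 814 in f/f cells, had a larger loss than miR-24-3p, miR-27a-3p and miR-27b-3p, with a wide interval (log2 ratio of -9.01, -14.31 to -6.53).

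**Figure D1:**
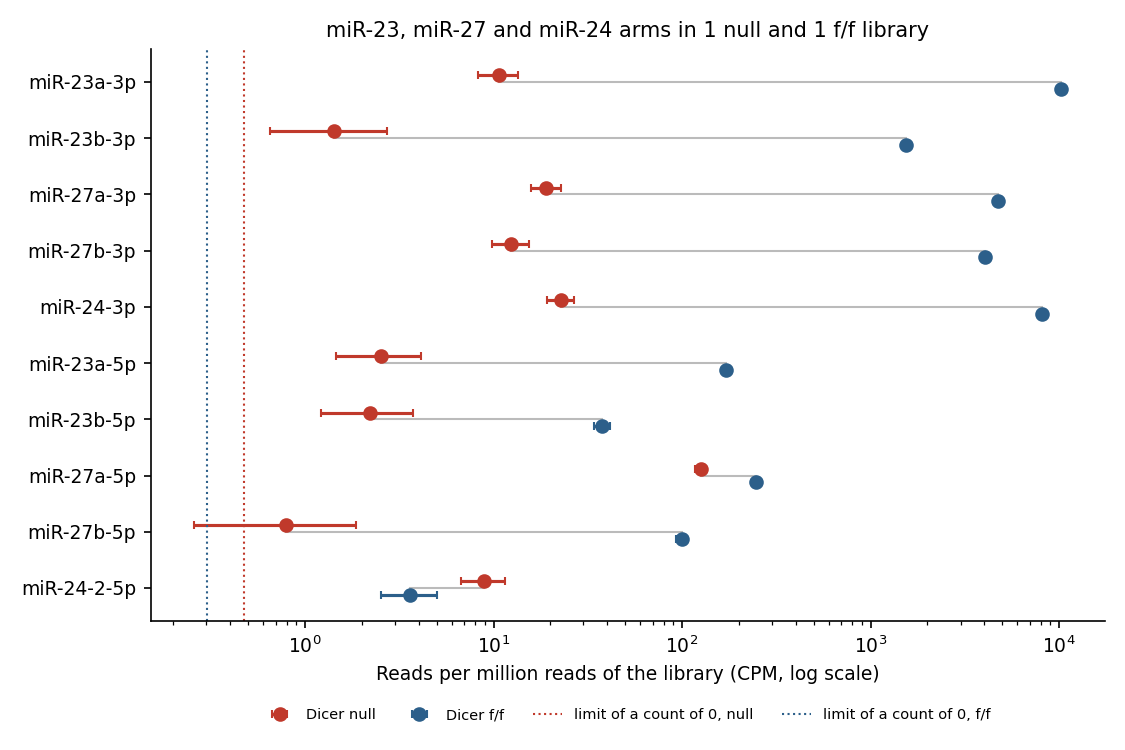
CPM of 10 arms of the 6 hairpins (log scale), with null cells drawn above f/f cells in each row and exact 95% Poisson intervals. The 3p arms lie between 1.43 and 22.7 CPM in null cells and between 1535 and 10221 CPM in f/f cells, whereas miR-27a-5p lies at 126 CPM in null cells and 246 CPM in f/f cells.

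A miRNA species is here a set of hairpins together with an arm. The 6 hairpins gave 14 species with reads, of which 11 had at least 100 f/f reads. That minimum favours species that are high in f/f cells, so the counts are read beside those of all species that met it. Of the 11, 10 were more than 2-fold lower in null cells, all but miR-27a-5p, against 87.9% of the 314 species of that abundance. More than 100-fold lower were 6 of the 11, against 38.2% of all. The log2 ratio of null to f/f cells had a median of -6.97 over the 11 and of -5.22 over the 314. Among reads of 18 to 23 nt, 11 of 11 species were more than 2-fold lower in null cells, against 96.3% of all. A loss of more than 2-fold was thus common among species of that f/f abundance, and rarer species were not counted. The ratio of miR-27a-5p was undercut by that of 276 of the 314 species, and miR-23a-3p and miR-23b-3p were undercut by 56 and 54 species. The 3 species of the hairpins with fewer f/f reads were the 5p arm of Mir24-2 and the 3p-side reads that tell the miR-24 hairpins apart, 21 reads of Mir24-2 and 4 of Mir24-1 in null cells and none in f/f cells. The other-family species nearest to miR-27a-3p by Euclidean distance in log2(CPM + 1) over the 2 libraries was miR-140-5p, with 125 reads in null cells and 46797 in f/f cells, at a distance of 0.06. miR-26a-5p, with 111 and 59980 reads, was the nearest to both miR-24-3p and miR-23a-3p, at distances of 0.55 and 1.02. The second nearest were miR-26a-5p to miR-27a-3p at 0.36, miR-140-5p to miR-24-3p at 0.80, and miR-125b-5p, with 82 and 225533 reads, to miR-23a-3p at 1.18.

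**Figure D2:**
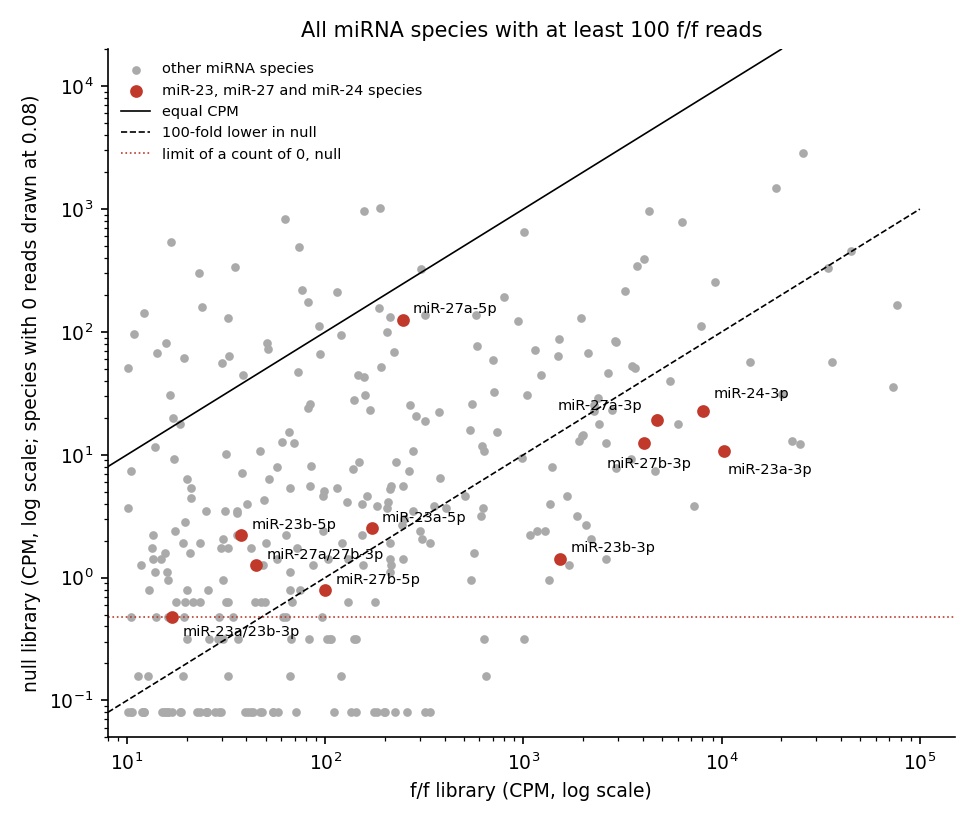
CPM in the null library against CPM in the f/f library for the 314 miRNA species of that abundance (log scales), with the 11 species of the miR-23, miR-27 and miR-24 hairpins in red. The 3p arms that tell the paralogues apart and miR-24-3p lie below the line of a 100-fold loss, and miR-27a-5p lies just under the line of equal CPM.

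The strand that dominated the a cluster differed between the libraries, through miR-27a-5p. The 3p share of the a cluster was 19.4% of 1071 reads in null cells (17.1 to 21.9, exact Clopper-Pearson) and 97.3% of 152996 reads in f/f cells (97.2 to 97.4). Without miR-27a-5p, 208 of 280 reads in null cells and 148812 of 150554 in f/f cells were 3p reads. The cluster sums leave out the reads shared by the clusters, nearly all of them miR-24-3p, but hold the 5p-side reads of Mir24-2. For Mir27a alone the 3p share was 13.2% in null cells (11.0 to 15.5) and 95.1% in f/f cells (94.9 to 95.3). The b cluster kept 3p reads in the majority in both, 82.7% in null cells (74.4 to 89.3) and 97.6% in f/f cells (97.5 to 97.7), and Mir27b gave 94.0% in null cells (86.5 to 98.0) and 97.6% in f/f cells. The miR-23 hairpins stood apart from the sums of their clusters in null cells. Mir23a gave 80.7% 3p reads there (70.6 to 88.6) and 98.3% in f/f cells, and Mir23b gave 9 of 23 in null cells (39.1%, 19.7 to 61.5) and 97.6% in f/f cells. The balance of the paralogues differed between the libraries in the 5p arms, in opposite directions for miR-27 and miR-23. Of miR-27-5p reads, 99.4% came from Mir27a in null cells (98.5 to 99.8) and 71.2% in f/f cells (69.6 to 72.7). Of miR-23-5p reads, 53.3% of 30 came from Mir23a in null cells (34.3 to 71.7) and 82.0% of 2081 in f/f cells (80.3 to 83.6). Of miR-23-3p reads that tell the paralogues apart, 88.2% came from Mir23a in null cells (78.7 to 94.4) and 86.9% in f/f cells (86.8 to 87.1). Of miR-27-3p reads, 60.6% came from Mir27a in null cells (53.4 to 67.5) and 54.0% in f/f cells (53.6 to 54.3). For both 3p families the f/f interval lay inside the null interval among these matching reads. With the tailed reads described below counted as well, the intervals did not overlap. The share of the a hairpin was then higher in null cells in both families. For miR-23-3p the intervals nearly touched (74.5 to 90.6 in null cells and 74.0 to 74.4 in f/f cells), and Mir23b had 15 reads in null cells.

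Where the reads lay in the hairpins differed too, and the Mir27a and Mir27b hairpins show it best. Their RefSeq arms are in capitals, with the loop between them in lower case.
Mir27a: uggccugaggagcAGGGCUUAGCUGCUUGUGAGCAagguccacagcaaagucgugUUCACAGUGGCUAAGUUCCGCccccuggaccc
Mir27b: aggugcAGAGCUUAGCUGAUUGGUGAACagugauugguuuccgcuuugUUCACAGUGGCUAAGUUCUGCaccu
The commonest read of Mir27a in null cells was a 26-nt form of the 5p arm that ran 4 nt past the annotated end into the loop (the bases past that end are in capitals), with 197 reads in null cells and 1 in f/f cells.
Mir27a, 26-nt form: agggcuuagcugcuugugagcaAGGU
Nearly all miR-27a-5p reads kept the annotated start, 98.1% of 791 in null cells and 98.6% of 2442 in f/f cells. Their 3′ ends did not. The commonest f/f 3′ end, which is the annotated one, held 11.5% of the reads in null cells (9.36 to 13.9) and 82.0% in f/f cells (80.4 to 83.5). Reads from the annotated start ended at every position from 3 nt before to 6 nt past that end in null cells, with 17.5% at 1 nt past and 25.4% at 4 nt past, whereas 2.91% of them ended 1 nt past it in f/f cells. In this arm the end that stayed is the one Drosha sets and the end that varied is the one Dicer sets. In the 3p arms of miR-27 and miR-24, given below, both ends differed between the libraries. Of miR-27a-5p reads, 59.9% were 24 nt or longer in null cells (56.4 to 63.4) and 0.0409% in f/f cells. The share was 76.1% in null cells and 2.24% in f/f cells over 658 miRNA hairpins with both arms placed, so long reads in null cells were not particular to this arm.

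**Figure D3:**
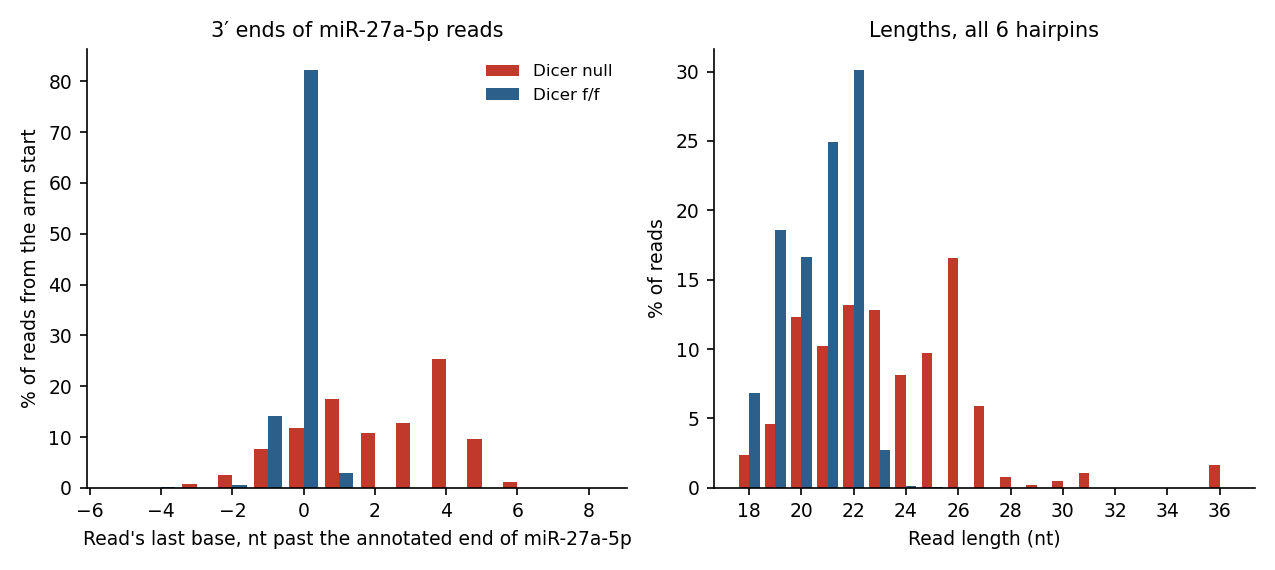
Left, where reads from the annotated start of miR-27a-5p ended, in nt past its annotated end, as a percentage of 776 reads in null cells and 2409 reads in f/f cells. Right, read lengths over all 6 hairpins as a percentage of 1335 reads in null cells and 290897 reads in f/f cells. The f/f reads end mostly at 0 and nearly all measure 18 to 23 nt, whereas the null reads reach past the end and have their highest bar at 26 nt. That bar holds 221 reads, 197 of them from miR-27a-5p.

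Reads that ran through an end of the loop by at least 3 nt on both sides, which a hairpin cut by Dicer at the annotated ends would not give, were common in null cells. They made up 42.2% of 1335 reads in null cells (39.6 to 44.9) and 0.0303% of 290897 reads in f/f cells (0.0243 to 0.0373), and were 10.1-fold higher in null cells in CPM (8.08 to 12.8). Mir27a gave 444 of them in null cells and 4 in f/f cells. Mir24-2 gave 64 and 0, at least 33.7-fold higher in null cells, and 50 of the 64 lay in no other hairpin. Mir23a gave 16 and 1, and Mir23b 15 and 4. Mir27b went the other way in CPM, with 21 in null cells and 79 in f/f cells, 2.38-fold lower in null cells (1.46 to 4.06). Its value was higher in null cells per read of 18 to 23 nt and per miRNA read. It was also higher there as a share of the hairpin's reads, 23.1% of 91 (14.9 to 33.1) against 0.190% of 41673 in f/f cells. In f/f cells all 79 ran through the 5p end of the loop, and in null cells 20 of the 21 ran through the 3p end. Over the 658 hairpins in which both arms could be placed, these 6 included, the share was 54.1% in null cells and 0.0966% in f/f cells, so the 6 hairpins lay below the whole in both libraries.

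Reads of the loop itself were seen in f/f cells from both miR-27 hairpins. The commonest are shown, to be set against the lower-case stretch between the arms above.
Mir27a, loop: AGGUCCACAGCAAAGUCGUG
Mir27b, loop: GUGAUUGGUUUCCGCUUUG
The 20-nt Mir27a form, which fills the space between the annotated arms exactly, had 0 reads in null cells and 232 in f/f cells. The 19-nt Mir27b form, which lacks the first base of a 20-nt loop, had 0 reads in null cells and 105 in f/f cells. Loop reads of the pair summed to 0 in null cells and 355 in f/f cells. In CPM they were at least 74.9-fold lower in null cells with the count of 0 set to 3 reads. As a share of the pair's reads they were 0 of 1002 in null cells (0 to 0.3675%) and 0.389% of 91292 in f/f cells (0.3495 to 0.431), intervals that overlapped. Over the 658 hairpins the share of loop reads was 0.0243% in null cells and 0.0260% in f/f cells. Mir27a and Mir27b ranked 3 and 4 by f/f loop reads, behind Mir30e and Mir106b, and these 4 hairpins were the ones with at least 100 loop reads in f/f cells. The loops of the miR-23 and miR-24 hairpins, of 14 to 16 nt, are shorter than the reads counted. A loop read could include the arm base next to each end of the loop, and Mir23b gave 2 such reads of 18 nt in f/f cells and 0 in null cells.

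**Figure D4:**
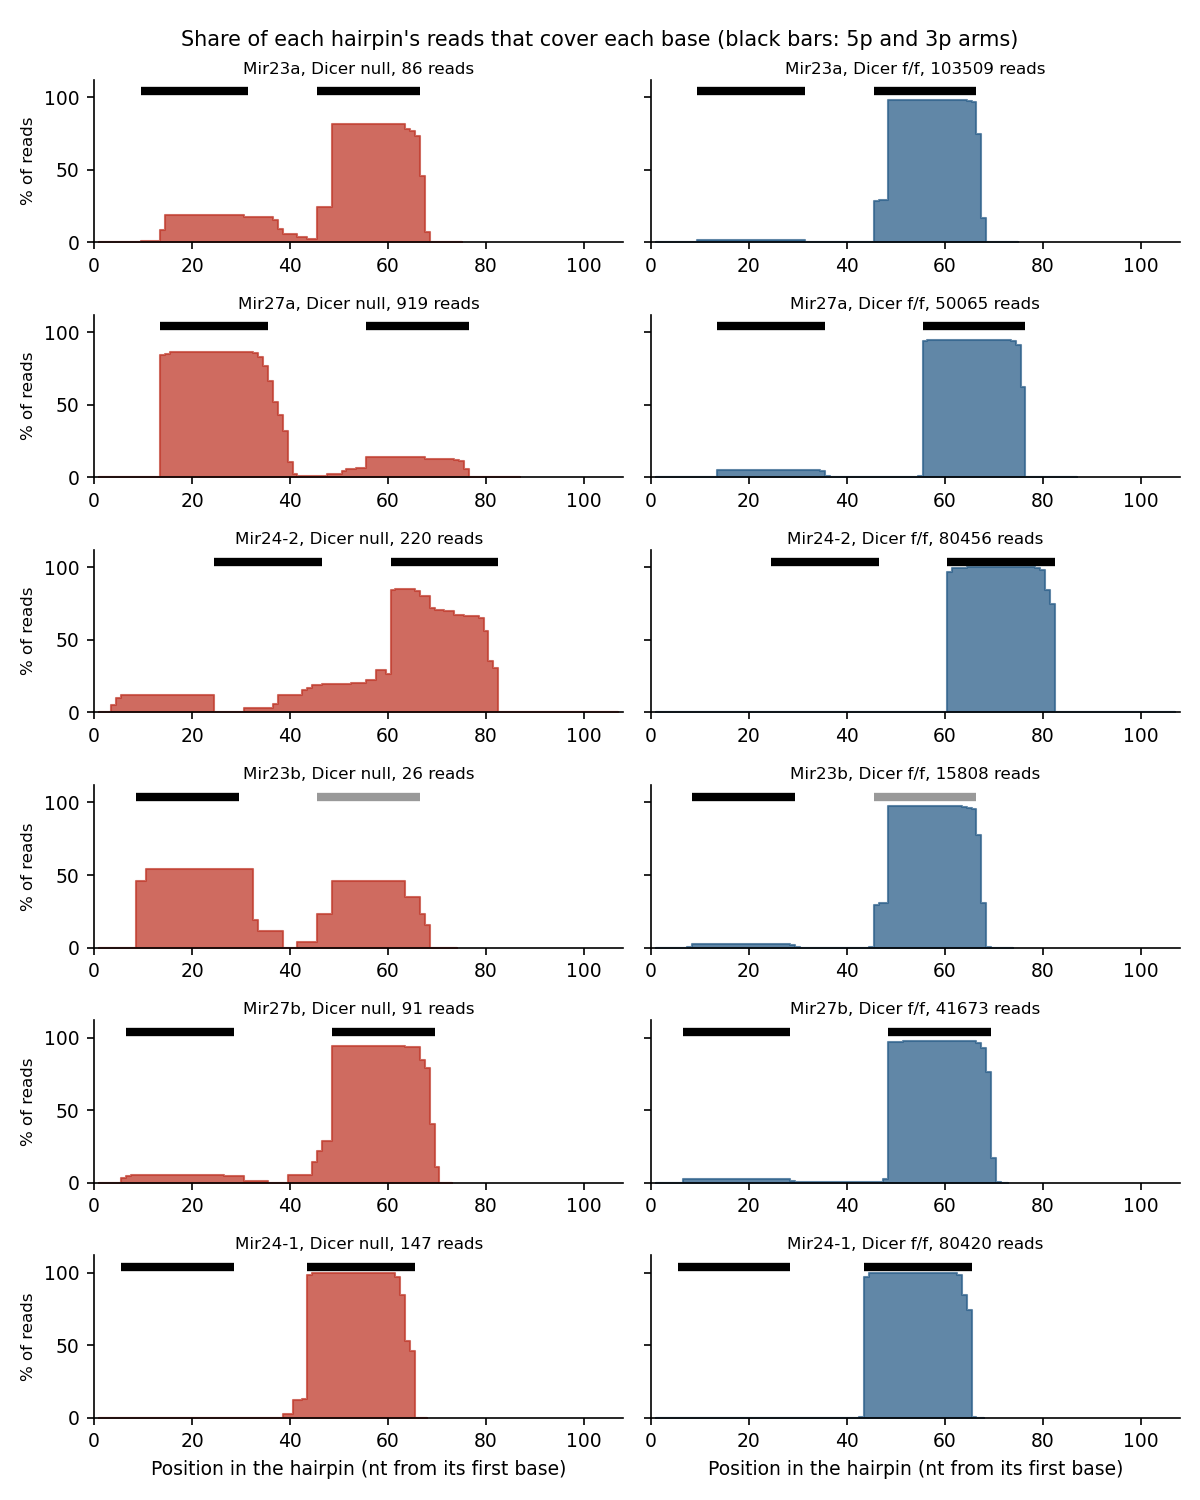
Share of each hairpin's reads that cover each base, null cells left and f/f cells right, with the annotated arms as bars (grey for the 3p arm of Mir23b, drawn over the window of miR-23a-3p). Reads shared by several hairpins are drawn on each of them, which is why the Mir24-2 and Mir24-1 panels resemble each other on the 3p side; f/f reads fill the 3p arms, and null reads of Mir27a fill the 5p arm and run past it.

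The 5p-side reads of the other hairpins in null cells were mostly not the mature arms. For miR-23a-5p, 1 of 16 reads began at the annotated start in null cells, against 1698 of 1706 in f/f cells. The rest began 4 or 5 nt inside the arm, and 15 of the 16 ran through the 5p end of the loop. For miR-23b-5p, 12 of 14 reads began at the annotated start in null cells and 360 of 375 in f/f cells, but 12 of the 14 were 24 nt or longer. For the 5p side of Mir24-2, none of 56 reads began at the annotated start in null cells (at most 6.38%), against 21 of 36 in f/f cells. In null cells 27 of the 56 lay before the arm and ended on the base just before its start, as did 4 reads in f/f cells, a 10.7-fold higher level in null cells in CPM (3.72 to 42.0). The commonest of them, shown because it abuts the arm, had 11 reads in null cells and 1 in f/f cells.
Mir24-2, before the 5p arm: ucucuccgggcuccgccuccc
The higher count of the Mir24-2 5p side in null cells was thus one of other fragments of the hairpin, and no read of miR-24-2-5p with its annotated start was seen there.

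Among 3p arms the start was the Dicer-set end. miR-27a-3p began at the annotated start in 55.8% of reads in null cells (46.5 to 64.9) and in 98.6% in f/f cells, miR-27b-3p in 74.4% in null cells (63.2 to 83.6) and 97.1% in f/f cells, and miR-24-3p in 88.1% in null cells (81.7 to 92.9) and 96.5% in f/f cells. miR-27a-3p reads that began 5 nt upstream, inside the loop, were the third commonest form in null cells, with 16 reads of 26 nt. The 3′ ends of these arms, which Drosha sets, differed too. The commonest f/f 3′ end held 45.0% of miR-27a-3p reads in null cells (35.9 to 54.4) and 65.35% in f/f cells. For miR-27b-3p it held 34.6% in null cells (24.2 to 46.2) and 61.2% in f/f cells, and for miR-24-3p 47.55% (39.2 to 56.1) and 74.2%.

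The reads of miR-23 differed from those of the other 3p arms in their start. The commonest f/f read of both miR-23a-3p and miR-23b-3p began at base 4 of the annotated miR-23a-3p and lacked the bases AUC, shown here with its own bases 2 to 8 in capitals.
miR-23a-3p, commonest read: aCAUUGCCagggauuucca
miR-23b-3p, commonest read: aCAUUGCCagggauuacca
Reads from base 4 made up 73.1% of miR-23a-3p in null cells (60.9 to 83.2; 49 of 67 reads) and 70.4% in f/f cells (70.1 to 70.7; 71560 of 101635 reads). For miR-23b-3p they made up 6 of 9 reads in null cells and 68.9% of 15265 reads in f/f cells. Reads from the annotated start made up 25.4% of miR-23a-3p in null cells and 28.5% in f/f cells, so the shares of both starts overlapped within counting error between the libraries. Bases 2 to 8 of the truncated read are CAUUGCC and those of the annotated arm are UCACAUU. Among 153 annotated arms with at least 1000 f/f reads, 146 had their commonest start at the annotated base. In 3 of the 153 it lay 3 or 4 bases inside, miR-23a-3p, miR-34c-3p and miR-362-5p, and in all 3 the skipped bases ended in AUC. Of 10 arms with AUC within their first 4 bases and at least 20 f/f reads, 5 had their commonest start just after it. The source of the truncated form was not tested. How the reads were trimmed is not given, so whether the form was present in the cells is not known. Because the reads counted were at least 18 nt long, a further 19 reads in null cells and 3677 in f/f cells of 15 to 17 nt that began at base 4 stood outside these sums.

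Many 3p reads carried bases at their 3′ end that are not in the hairpin. A tailed read here had at least 18 matching nt followed by a run of 1 kind of base found in no annotated transcript, and shares are of matching and tailed reads together. The tailed reads of miR-24 and miR-23b that were commonest in f/f cells are shown with the tail in capitals.
miR-24-3p with tail: uggcucaguucagcaggaacagU
miR-23b-3p with tail: acauugccagggauuaccacU
The miR-24-3p read with a single U had 74 reads in null cells and 74131 in f/f cells, and the same read without it had 61 and 57733, so that the tailed form was the commoner in both. The miR-23b-3p read with U had 1 read in null cells and 15174 in f/f cells, against 2 and 3188 without it, and the commonest tailed miR-23b-3p read in null cells had 7 U, with 2 reads there and 0 in f/f cells. U tails made up 35.8% of miR-24-3p in null cells (29.8 to 42.3) and 47.6% in f/f cells (47.4 to 47.8). They made up 6 of 15 reads of miR-23b-3p in null cells and 61.9% in f/f cells (61.5 to 62.4). For miR-23a-3p the share was 7.79% in null cells (2.91 to 16.2) and 20.8% in f/f cells, which was below its paralogue in f/f cells. The arms differ at base 19 over the annotated 21 nt, and the hairpins differ again past it, where tails begin. The matching part of the commonest tailed f/f read ended on A for miR-23a-3p (12042 reads) and on C for miR-23b-3p (15174 reads). With tailed reads counted, Mir23a gave 83.7% of miR-23-3p reads in null cells (74.5 to 90.6) and 74.2% in f/f cells (74.0 to 74.4). Mir27a then gave 65.3% of miR-27-3p reads in null cells (59.6 to 70.7) and 54.05% in f/f cells (53.8 to 54.3).

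For miR-27a-3p the share of U tails was higher in null cells, through tails of 3 or more U. U tails made up 20.1% of miR-27a-3p in null cells (14.7 to 26.4) and 9.02% in f/f cells (8.80 to 9.24). Single U made up 8.25% of them in null cells (4.79 to 13.1) and 7.82% in f/f cells (7.62 to 8.03), and 3 or more U made up 11.9% in null cells (7.67 to 17.3; 23 reads) and 0.180% in f/f cells. U tails made up 19.4% of miR-27b-3p in null cells (12.3 to 28.4) and 12.1% in f/f cells (11.8 to 12.4), intervals that overlapped. A tails made up 18.04% of miR-27a-3p in null cells (12.9 to 24.2) and nearly the same share in f/f cells (17.7 to 18.3). These like shares covered unlike reads. The commonest A-tailed form in null cells, with 11 reads, began inside the loop, as did forms with 6 and 5 reads. A form with 8 reads began at the annotated start, as did the commonest in f/f cells, with 4295 reads. A tails made up 2.91% of miR-27b-3p in null cells (0.605 to 8.28) and 12.8% in f/f cells (12.5 to 13.1). Over the 6 hairpins, U tails made up 12.1% of reads in null cells (10.5 to 13.8) and 31.6% in f/f cells (31.5 to 31.8), and A tails 4.76% in null cells and 6.42% in f/f cells. These sums mix arms in unlike parts. miR-27a-5p, with U tails on 2.4% of its reads in null cells, gave 835 of the 1616 reads there and 2486 of 477409 in f/f cells. Among 314 species in f/f cells the median share was 2.32% for U and 4.86% for A, and miR-23b-3p ranked 3 and miR-24-3p ranked 7 from the highest for U.

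Long U tails in null cells sat on another kind of read. Tails of 3 or more U were on 26 reads of the 6 hairpins in null cells, 23 of which ran through an end of the loop. In f/f cells they were on 501 reads, none of which did. Other tails shared the trait in part. In null cells 57 of 195 reads with any U tail and 41 of 77 with A tails ran through an end of the loop, beside 564 of 1335 matching reads. In f/f cells 5 of 151019 and 5 of 30642 tailed reads did. Mir27a held 22 of the 23, of which 5 were copies of a form with 5 U. The commonest, shown for its extra bases on both sides of the arm, had 16 reads in null cells and 0 in f/f cells.
Mir27a, long U tail: cguguucacaguggcuaaguuccgUUUU
It begins 4 nt upstream of miR-27a-3p, inside the loop, and its tail replaces the last base of the annotated arm.

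**Figure D5:**
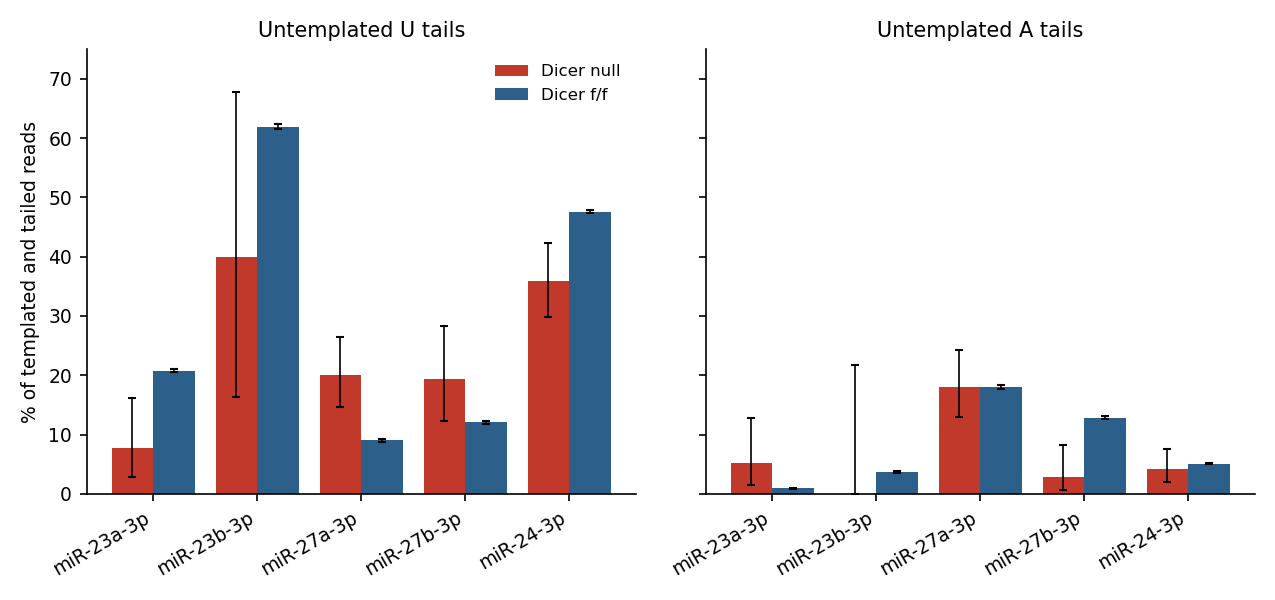
Untemplated U tails (left) and A tails (right) on 3p arms, as a percentage of matching and tailed reads, null cells left of f/f cells, with exact 95% Clopper-Pearson intervals. U tails reach 61.9% on miR-23b-3p and 47.6% on miR-24-3p in f/f cells, and the wide null interval of miR-23b-3p rests on 15 reads.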

How the data were processed

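Small RNAs of 15 to 50 nt were cut from a 15% gel and sequenced by the Illumina small RNA protocol, per the labels' protocols. The authors deposited, for each library, distinct read sequences of 5 to 36 nt with their read counts. The submitters' processing notes name the mm9 build. Neither the trimming tool nor an aligner is given in the sources used here. Coordinates here are from GRCm38 and RefSeq.

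Reads of at least 18 nt were placed by exact sense match in 2199 hairpins of GENCODE M21, with Python 3 scripts and scipy for the intervals; 3 entries with symbols of other RNA classes were left out. The arm was the side of the hairpin's midpoint that held the read's middle. CPM used all reads of the file as denominator. Ratios have exact conditional 95% intervals. Tails were the unmatched remainder after the longest match of at least 18 nt, kept where it was a run of 1 base and the read lay in no annotated transcript; the genome was not searched. The scripts were tested on simulated data. Named arms were both arms of all 6 hairpins, and the nearest other species were taken for the 3 members with the most f/f reads. The members and lists were chosen with earlier results of these data known. Alternatives were other denominators, length limits, a copy minimum and the addition of tailed reads.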

Additional observations from a re-analysis of the deposited data

Results flagged for a closer look

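Reads on the strand opposite to the 6 hairpins stood outside the comparisons and were above the limit of 3 reads that a count of 0 allows in f/f cells. There were 1 such read in null cells, or 0.159 CPM (0.00402 to 0.886, exact Poisson interval), and 40 in f/f cells, or 4.02 CPM (2.87 to 5.48), of 7 distinct sequences. All of them lay opposite the miR-24 hairpins and inside the annotated hairpins Mir3074-1 and Mir3074-2, which occupy the other strand there.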

How the results depend on the processing

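With another denominator, every log2 ratio of null to f/f cells, and so the median of all species, shifts by 1.43 for reads of 18 to 23 nt, 4.78 for miRNA reads and -2.12 for snoRNA and snRNA reads. The a cluster (-6.50 as reported) then stood at -5.07, -1.72 and -8.62, the b cluster (-8.35) at -6.93, -3.57 and -10.47, and all 6 hairpins (-7.11) at -5.68, -2.33 and -9.23. With reads of 18 to 23 nt alone the 3 sums were -7.55, -8.88 and -7.96, and with tailed reads added -6.71, -8.70 and -7.55. With reads of 20 nt or more the a cluster was -5.83 and all 6 hairpins -6.79. Without miR-27a-5p, chosen after seeing the data, they were -8.41 and -8.39. A minimum of 2 reads per sequence, and reads of 15 nt or more (also added after seeing the data), left each of these sums within its counting interval. Of 82 values of single species under the alternatives, 78 kept their direction and 4 did not: miR-27a-5p was 0.46 per read of 18 to 23 nt and 3.82 per miRNA read, miR-23b-5p 0.70 per miRNA read, and the 5p side of Mir24-2 -0.82 per snoRNA and snRNA read. Among reads of 18 to 23 nt, the 3p share in null cells was 30.2% for the a cluster and 96.0% for the b cluster (97.9% in f/f cells), and 35.0% of reads in null cells ended at the commonest f/f 3′ end. Among reads of 20 nt or more, Mir23a gave 83.7% of miR-23-3p and Mir27a 54.4% of miR-27-3p in f/f cells. Reads of 25 nt or longer made up 36.4% in null cells and 0.0402% in f/f cells. With 20 matching nt required, U tails made up 36.4% in f/f cells. The share of species more than 2-fold lower was 94.3% with at least 1000 f/f reads and 96.3% among reads of 18 to 23 nt. The causes were not tested. No paired analysis was possible because each genotype has 1 library, and for the same reason no library could be left out. Depth limits the null values most: miR-23b-3p rests on 9 reads there and miR-27b-5p on 5.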
